A study of Homo sapiens with 46 samples.

Results

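The cytoplasmic RNA of ectoderm cells was compared with that of mesoderm cells, both made in culture from H1, an established line of human pluripotent stem cells. The comparison used 6 of the 46 libraries of the series, 3 labelled ectoderm cytoplasm and 3 labelled mesoderm cytoplasm, chosen by their cell type and fraction labels. All groups came from the same line. For mesoderm, H1 cells were grown in DMEM/F12 with 0.5% fetal bovine serum, 100 ng/ml BMP4, 100 ng/ml VEGF and 10 ng/ml bFGF, with 100 ng/ml activin A in the first 24 hours. For ectoderm, they were grown in DMEM/F12 with 15% KOSR (a serum replacement) and 2 µM each of A83-01, PNU-74654 and dorsomorphin. Cells were collected after 5 days. Levels in endoderm cells and in undifferentiated H1 cells are given beside some genes. The endoderm cultures had 100 ng/ml activin A and 0.5% fetal bovine serum and were collected after 5 days. For undifferentiated cells none of these additions and no collection day is recorded. Whether the 3 repeats of a group were separate cultures is not stated, so the p-values measure the spread between these samples, which may be technical.

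Germ layers are set by a few secreted signals. BMP4 is a ligand whose receptors phosphorylate SMAD1, SMAD5 and SMAD9, while nodal and activin act through SMAD2 and SMAD3. Dorsomorphin inhibits BMP receptors, A83-01 inhibits the receptors of nodal, activin and TGF-beta, and PNU-74654 blocks the binding of beta-catenin to TCF factors in the WNT pathway. Blocking BMP and nodal signals is a common way to turn pluripotent cells towards neural ectoderm, where SOX2, PAX6, OTX2 and SIX3 are known regulators. BMP4 can turn the same cells towards mesoderm, marked early by TBXT (brachyury) and later by HAND1 and cardiac or blood genes, and also towards amnion-like or trophoblast-like cells, marked by GATA3, GABRP and VTCN1.

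Each cell type was counted on a transcript assembly of its own, so the ectoderm and mesoderm tables did not list the same transcripts. Counts were summed over the transcripts of an Ensembl gene and joined. There were 17713 genes in the ectoderm table and 15004 in the mesoderm table, of which 13471 were in both. A further 4242 genes were in the ectoderm table only and 1533 in the mesoderm table only. These are described apart, with no test, because the other table cannot show them. The cytoplasm libraries held 13190736 to 18373300 counts assigned to genes, and the joined genes took 94.5 to 97.6% of them in ectoderm and 98.6 to 99.0% in mesoderm. Replicates correlated at 0.990 to 0.992 on the log2 scale across genes, and libraries of different groups at 0.836 to 0.847. Values are CPM, the counts scaled to a common library size, over the joined genes and with TMM factors, unless a gene is said to be on its own table. A change is the log2 ratio of ectoderm to mesoderm with its standard error, and genes said to be higher or lower were called unless stated otherwise. A gene is called at an adjusted p under 0.05 in edgeR's quasi-likelihood test, two-sided, with Benjamini-Hochberg adjustment over all genes tested.

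Controls for the fractions did not all lie where the labels place them. MALAT1, an RNA kept in the nucleus, stood at 2185, 1217 and 1701 CPM in the ectoderm cytoplasm libraries on their own table and at 158, 175 and 191 CPM in the mesoderm cytoplasm libraries. In the ectoderm libraries labelled nucleus it was lower, at 169 ± 136 CPM (SD, n = 3). Messenger RNAs of the mitochondrial genome took 1.10% ± 0.232 of the ectoderm cytoplasm counts, against 8.31% ± 1.12 in the ectoderm libraries labelled nucleus. In mesoderm the order was the other way, with 5.66% ± 0.674 in cytoplasm and 1.04% ± 0.0827 in nucleus. Messenger RNAs of cytosolic ribosomal proteins took 13.4% ± 1.24 of counts in ectoderm cytoplasm and 12.5% ± 1.21 in mesoderm cytoplasm. They took 11.8% ± 2.42 in the ectoderm libraries labelled nucleus against 1.90% ± 0.340 in the mesoderm ones. The cytoplasm libraries thus lay close together in ribosomal protein mRNA and apart in MALAT1 and mitochondrial mRNA. The libraries labelled nucleus differed in both mRNA classes. NEAT1, another nuclear RNA, stood at 38.3 ± 2.23 CPM in ectoderm cytoplasm and 39.5 ± 0.679 CPM in mesoderm cytoplasm. In the libraries labelled nucleus it stood at 5.34 ± 2.55 CPM in ectoderm and 84.8 ± 31.4 CPM in mesoderm. Like MALAT1, NEAT1 was thus lower in the ectoderm libraries labelled nucleus than in ectoderm cytoplasm. So were the means of the nuclear RNAs KCNQ1OT1 (3.61 against 8.80 CPM) and SNHG14 (93.9 against 219 CPM). The part of fractionation in the differences given here was not tested.

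Of 13032 genes tested in cytoplasm, 8881 were called (68.1%), 4348 higher in ectoderm (33.4%) and 4533 lower (34.8%). A change of at least 2-fold was seen in 3488 called genes (26.8% of those tested). The 3 ectoderm libraries did not overlap the 3 mesoderm libraries for 9356 genes (71.8%). The median change over all genes tested was -0.02. At this background most genes differ, so a single call carries little weight and the sizes below matter more. In bulk libraries, fewer cells of a type and less RNA per cell cannot be told apart.

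The assemblies limit the largest changes. Of the 700 called genes with an 8-fold change or more, 421 (60.1%) had no Ensembl transcript listed in both tables, against 2404 (18.4%) of all 13032 tested. Another 244 of the 700 were called the same way when only shared Ensembl transcripts were summed, and 6 the opposite way. Cell type and assembly cannot be told apart for a gene with no shared transcript. The genes described first were therefore held to both measures, a restriction made after the values were seen: called both ways, with the gene sum and the shared transcripts within 1 on the log2 scale, at least 10 CPM in the higher group and no overlap between libraries. There were 4033 such genes, 2005 higher and 2028 lower in ectoderm. Genes outside it include MAP2, a microtubule protein of neurons, at 4.57 ± 0.10 in the gene sum, while its 1 shared transcript was at 0 in every ectoderm library and at 12.1 CPM in mesoderm. MEIS1, a homeobox factor, had -2.88 ± 0.12 in the gene sum and 1.34 ± 0.36 in shared transcripts. DNMT3B, a DNA methyltransferase of pluripotent cells, had 0.30 ± 0.089 and -3.90 ± 0.22.

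**Figure D1:**
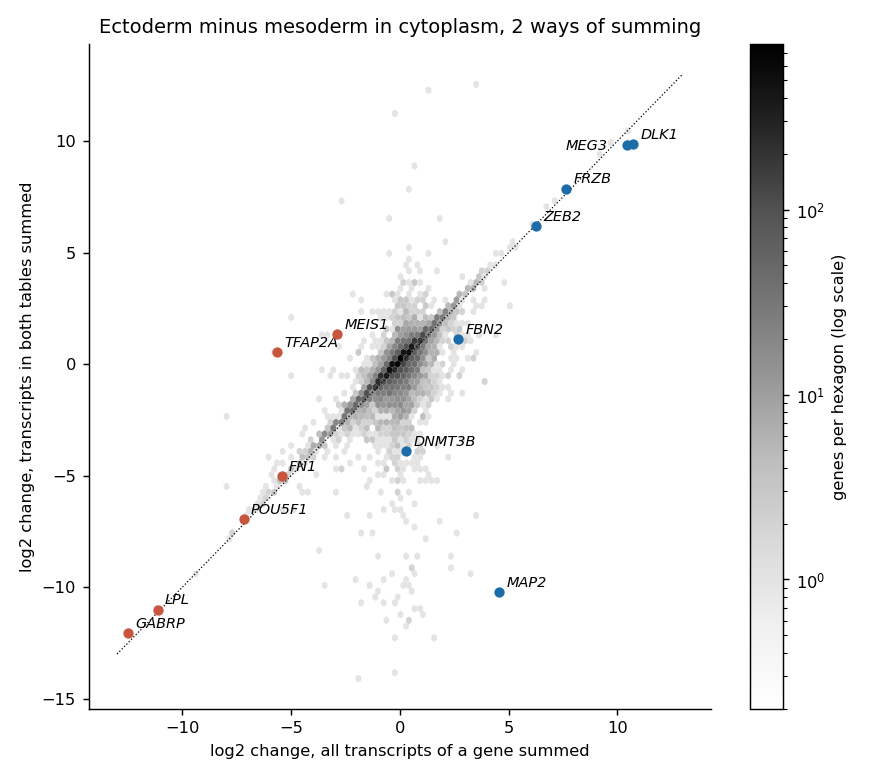
Change of each gene between ectoderm and mesoderm cytoplasm from all transcripts of the gene (horizontal axis, log2) against the change from shared Ensembl transcripts only (vertical axis, log2), as the number of genes per hexagon on a log colour scale. DLK1, FRZB, POU5F1 and GABRP lie on the dotted line of equal change, and MAP2, TFAP2A, MEIS1 and DNMT3B lie away from it.

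Among genes held to both measures, DLK1 had the largest change towards ectoderm. DLK1 is a paternally expressed imprinted gene for a membrane protein related to Notch ligands. It stood at 4073, 4488 and 4423 CPM in the ectoderm libraries and 3.45, 1.51 and 2.70 CPM in the mesoderm libraries. The libraries did not overlap, and the change was 10.73 ± 0.25 (adjusted p = 4.2e-12, edgeR). NNAT, neuronatin, another paternally expressed imprinted gene, was higher at 408, 487 and 491 CPM against 31.5, 32.6 and 34.1 CPM (3.82 ± 0.11). MEG3, the maternally expressed long noncoding RNA of the imprinted domain of DLK1, stood at 66.1, 82.5 and 80.2 CPM in the ectoderm libraries and 0.065, 0 and 0.082 CPM in the mesoderm libraries. With so few mesoderm counts its ratio is best given by the counting interval, 462 to 13789-fold. MEG3 was thus at or near 0 in every mesoderm library and DLK1 was low there, while both were present in every ectoderm library.

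Several of the next genes encode secreted or surface proteins. FRZB, a secreted antagonist that binds WNT ligands, stood at 142, 139 and 142 CPM in the ectoderm libraries and 0.715, 0.44 and 0.981 CPM in the mesoderm libraries. Its change was 7.66 ± 0.16. STC1, the secreted glycoprotein stanniocalcin, stood at 73.7, 68.3 and 72.8 CPM in the ectoderm libraries and 0.13, 0.816 and 0.49 CPM in the mesoderm libraries, a change of 7.19 ± 0.23. PAMR1, a secreted protein with a peptidase domain, stood at 141, 135 and 135 CPM in the ectoderm libraries and 2.47, 4.21 and 4.33 CPM in the mesoderm libraries. For these genes every ectoderm library was above every mesoderm library. DLL1, a Notch ligand of neural progenitors and of early mesoderm, stood at 185, 169 and 171 CPM in the ectoderm libraries and 13.8, 12.1 and 9.89 CPM in the mesoderm libraries. NELL2, a secreted neural glycoprotein, was higher by 3.89 ± 0.096 (213 against 14.3 CPM, means of ectoderm and mesoderm). LSAMP, a neuronal cell adhesion protein, was higher by 6.14 ± 0.23, and TPBG, a membrane glycoprotein that dampens WNT signals, by 4.30 ± 0.10. ZEB2, a zinc finger repressor that is needed in neural development and binds SMADs, was higher by 6.25 ± 0.20 (26.8 against 0.344 CPM). DUSP4, a phosphatase of MAP kinases, was higher by 4.11 ± 0.12, FUT3, a fucosyltransferase, by 4.02 ± 0.18, and TMEM35A by 3.84 ± 0.31. SFT2D3 stood at 18.5, 18.5 and 19.3 CPM in the ectoderm libraries and 0, 0 and 1.63 CPM in the mesoderm libraries, so the size of its change (5.30 ± 0.58) rests on mesoderm library 3, without which that group is at 0. SLX1B was at 0 in every mesoderm library and at least 53.2-fold higher in ectoderm against a floor of 3 counts per library, but SLX1A is a near-identical copy and its reads may be shared.

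The largest changes towards mesoderm among genes held to both measures included GABRP, a GABA receptor subunit known from amnion. It stood at 0, 0.063 and 0.11 CPM in the ectoderm libraries and 389.7, 403 and 402 CPM in the mesoderm libraries. The counting interval of its ratio was 2208 to 31304-fold in favour of mesoderm. POU5F1, the pluripotency factor also called OCT4, stood at 5.06, 6.64 and 7.74 CPM in the ectoderm libraries and 934, 869.9 and 1029 CPM in the mesoderm libraries, a change of -7.18 ± 0.16 (adjusted p = 4.2e-12, edgeR). EPAS1, a hypoxia-inducible factor expressed in endothelium, stood at 2.39, 2.34 and 3.19 CPM in the ectoderm libraries and 561, 562 and 512 CPM in the mesoderm libraries. BAMBI, a decoy receptor induced by BMP signals, stood at 3.42, 1.64 and 3.41 CPM in the ectoderm libraries and 254, 258 and 246 CPM in the mesoderm libraries. In all of these the groups did not overlap. LPL, lipoprotein lipase, was at 0 in every ectoderm library and at least 97.4-fold lower there. VTCN1, an immune checkpoint ligand found in amnion and trophoblast, changed by -6.88 ± 0.26 (0.241 against 30.1 CPM). CYP26A1, which breaks down retinoic acid, changed by -6.40 ± 0.20 (0.399 against 33.6 CPM). APELA, a peptide ligand made by pluripotent cells and early embryos, changed by -6.01 ± 0.11 (3.42 against 222 CPM). CCBE1, a secreted protein needed for lymphatic vessels, changed by -6.19 ± 0.15 and LCP1, an actin-bundling protein of blood cells (-6.39 ± 0.17). HNMT, which methylates histamine, changed by -6.04 ± 0.34, ACTG2, a smooth muscle actin (-6.02 ± 0.22), and GAL, the neuropeptide galanin (-5.86 ± 0.28). All 30 genes with the largest changes held to both measures, 15 in each direction, were called in the same direction in the libraries labelled nucleus, where 69.1% of genes were called, and in the chromatin libraries, where 48.7% were, which share no library with the cytoplasm ones but share the assemblies.

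**Figure D2:**
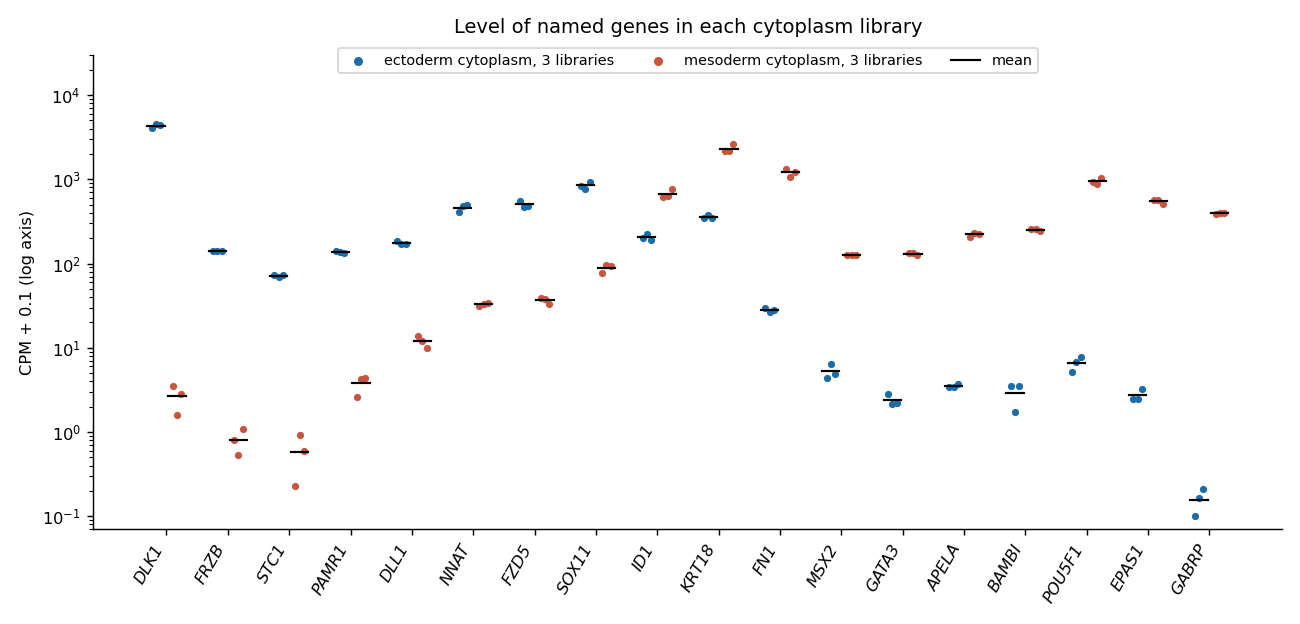
CPM of 18 genes in each ectoderm and mesoderm cytoplasm library (vertical log axis, with 0.1 added), a point per library and a line at the group mean. The ectoderm and mesoderm points are apart for each gene shown, as in DLK1, at the ectoderm end, and GABRP, at the mesoderm end.

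Regulators of neural ectoderm were mostly higher in ectoderm cytoplasm or listed in its table and not in the mesoderm table. Of 38 listed genes, 17 were tested, 11 were called higher and 4 lower (9 and 2 of 12 in shared transcripts), with a median change of 1.35 against -0.02 over all genes. A further 15 were in the ectoderm table only and 1 in the mesoderm table only, where all genes so listed numbered 4242 and 1533. Summed over the tested members, the list stood at 3359 to 3528 CPM in the ectoderm libraries and 1091 to 1116 CPM in the mesoderm libraries. OTX2, a homeobox factor of forebrain and midbrain, stood at 174, 183 and 173 CPM in the ectoderm libraries and 57.1, 57.1 and 63.9 CPM in the mesoderm libraries, a change of 1.57 ± 0.083. SFRP1, a secreted WNT antagonist of neuroepithelium, stood at 509, 481 and 476 CPM in the ectoderm libraries and 119.7, 119 and 117 CPM in the mesoderm libraries. LIX1 was higher by 2.59 ± 0.087, NES, the progenitor filament nestin, by 1.53 ± 0.093, TLE4, a corepressor, by 1.43 ± 0.081, and ZNF521, a zinc finger factor of neural commitment, by 1.35 ± 0.094. ZIC5 was higher by 1.09 ± 0.11 and OTX1 by 0.98 ± 0.14. SOX11, a factor of neural progenitors, stood at 834, 766 and 934 CPM in the ectoderm libraries and 76.4, 95 and 93.5 CPM in the mesoderm libraries, but it and FEZF1, a forebrain repressor at 389 against 2.95 CPM, had no shared transcript. The 4 members called lower were NR2F2, an orphan nuclear receptor also used in mesoderm (-1.40 ± 0.077), TCF4 (-0.86 ± 0.11), MEIS2 (-0.65 ± 0.093, but 0.57 ± 0.70 in shared transcripts) and ZIC1 (-1.48 ± 0.48, no shared transcript). ZIC1 was not called without ectoderm library 2 (adjusted p = 0.058, edgeR) or without mesoderm library 3 (0.07).

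Some neural regulators were in the ectoderm table and not in the mesoderm table. SOX2 stood at 428, 356 and 439 CPM in the 3 ectoderm libraries on their own table. RAX, an eye-field homeobox factor, stood at 267, 277 and 269 CPM, and PAX6 at 209, 204 and 216 CPM. SIX3, a forebrain factor that represses WNT genes, stood at 197 ± 16 CPM (SD, n = 3), LHX2 at 151 ± 0.927, ZIC2 at 121 ± 19.3, SOX21 at 115 ± 15.3 and POU3F1 at 72.7 ± 4.34 CPM. Several were also in the tables of other cell types, whose cytoplasm libraries were scaled on their own. In undifferentiated cells SOX2 stood at 202 CPM, ZIC2 at 121, SOX21 at 9.53 and POU3F1 at 13.5 CPM, and in endoderm ZIC2 stood at 108 and PAX6 at 1.83 CPM. ZIC2 thus stood at a like level in undifferentiated cells and in ectoderm. FABP7, a fatty acid carrier of radial glia, stood at 43.3 ± 7.72 CPM and LHX5 at 35.7 ± 3.16 CPM. SIX6, HESX1, NR2F1 and PAX3 lay lower, between 4.76 and 6.35 CPM. Among neuronal genes, NEUROG2, a proneural factor, stood at 99.0 ± 2.42 CPM and SYT1, a synaptic vesicle calcium sensor, at 61.6 ± 8.85 CPM. GAP43 and MAPT, also in the ectoderm table and not in the mesoderm table, stood at 5.71 and 1.46 CPM. In undifferentiated cells SYT1 stood at 8.08 CPM and GAP43 at 21.5 CPM. Of the 5 neuronal genes tested, 2 were called higher and 2 lower, while of the 3 in shared transcripts 0 were higher and 3 lower. TUBB3, a neuronal tubulin, was lower in ectoderm at 30.5, 35.0 and 34.6 CPM against 69.2, 70.1 and 75.0 CPM (-1.10 ± 0.092), and INA, a neuronal filament, was lower (-1.63 ± 0.13). DCX and STMN2, of young neurons, had means below 1 CPM in both groups. The 2 called higher were MAP2, whose shared transcript went the other way, and RBFOX3, at 8.10 against 1.31 CPM, which has no shared transcript, so that cell type and assembly cannot be told apart. With each cell type on its own table, RBFOX3 stood at 29.1 CPM in undifferentiated cells against 8.04 CPM in ectoderm, and MAP2 at 3.14 against 289 CPM. TUBB3 stood at 165 CPM in undifferentiated cells and 287 CPM in endoderm against 33.1 CPM in ectoderm.

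Neural crest genes did not move together. Of 7 tested, 3 were called higher and 4 lower, with a median of -1.21 in cytoplasm and 1.00 in the nucleus libraries. SOX9 was higher at 26.0, 25.9 and 28.5 CPM against 6.11, 7.47 and 6.21 CPM (2.02 ± 0.13) and NGFR, a neurotrophin receptor, by 1.60 ± 0.11. SOX10 was higher at 30.2 against 2.65 CPM (3.53 ± 0.21), but had no shared transcript. MSX2, a BMP-induced homeobox factor, was lower at 4.31, 6.26 and 4.83 CPM against 126, 126 and 127 CPM. ERBB3, a neuregulin receptor, was lower (-1.71 ± 0.12) and SNAI2, a repressor of E-cadherin (-1.21 ± 0.21). In the libraries labelled nucleus SNAI2 was called higher (1.02 ± 0.35). PAX7 was in the ectoderm table only at 7.35 CPM. TFAP2B, ETS1 and MSX1 were in the mesoderm table only at 15.9, 16.8 and 5.73 CPM.

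The libraries labelled mesoderm carried genes of amnion and trophoblast and some of surface ectoderm. All 6 tested members of the amnion and trophoblast list were called lower in ectoderm, with a median of -4.59. Summed over them, the mesoderm libraries stood at 810 to 849 CPM and the ectoderm libraries at 47.6 to 50.3 CPM. GATA3, a zinc finger factor of these tissues, stood at 2.73, 2.02 and 2.09 CPM in the ectoderm libraries and 132, 133 and 127 CPM in the mesoderm libraries, a change of -5.84 ± 0.12. IGFBP3, which binds insulin-like growth factors, was lower (-3.34 ± 0.089) and KRT7, a simple-epithelium keratin (-2.96 ± 0.17). TFAP2C was lower (-0.50 ± 0.11), but was not called in shared transcripts (-0.29 ± 0.11). Not all members were particular to mesoderm, with each cell type on its own table and no test. GATA3 stood at 137 CPM in endoderm against 125 CPM in mesoderm, and KRT7 at 29.0 CPM in undifferentiated cells against 27.9 CPM. GABRP, IGFBP3, TFAP2C and VTCN1 were lower in undifferentiated cells than in mesoderm, GABRP at 4.45 against 383 CPM. A further 5 members were in the mesoderm table only, among them ISL1 at 58.3 ± 4.89 CPM, while CGA, ELF5, ERVW-1 and ERVFRD-1, of differentiated trophoblast, were at 1.08 CPM or less. Of 10 surface ectoderm genes tested, 8 were called lower and 2 higher. GATA3, KRT7 and TFAP2C, among the 8, are also in the amnion and trophoblast list. TP63, a master factor of stratified epithelium, was in the mesoderm table only at 27.5 ± 2.75 CPM, and KRT15, a basal keratin, at 0.154 CPM. The basal keratins KRT5 and KRT14 were not analysed here. GRHL2, an epithelial factor, was lower (-1.97 ± 0.098) and DLX3 (-1.11 ± 0.12), while GRHL3 was higher by 2.18 ± 0.14 and DLX5 by 0.41 ± 0.12. TFAP2A had a gene-sum change of -5.66 ± 0.11 but 0.53 ± 1.10 in its shared transcripts. On their own tables KRT19 and EPCAM stood higher in endoderm (1544 and 173 CPM) than in mesoderm (737 and 125 CPM). GRHL2 and TFAP2A stood lower in endoderm (71.7 and 40.9 CPM) than in mesoderm (139 and 171 CPM).

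Early mesoderm regulators were near 0 at this stage. TBXT stood at 0.134 ± 0.017 CPM in the mesoderm libraries on their own table, CDX2 at 0.562 ± 0.404 and CDX1 at 0.696 ± 0.199 CPM. Later regulators were present in the mesoderm table and not in the ectoderm table. HAND1, a factor of lateral mesoderm, heart and extraembryonic tissue, stood at 134, 129 and 139.6 CPM and TBX3 at 73.7 ± 6.62 CPM. NKX2-5, a cardiac homeobox factor, stood at 6.81 ± 0.557 CPM and GATA6 at 4.48 ± 0.402 CPM. In all, 10 of 38 mesoderm regulators were in the mesoderm table only and 2 in the ectoderm table only. Of 11 tested, 8 were called lower in ectoderm and 2 higher, with a median of -1.21, and in shared transcripts 5 of 9 were lower and 2 higher. HAPLN1, a matrix link protein, was lower (-2.45 ± 0.099), PDGFRB (-0.94 ± 0.10) and WNT5A, a noncanonical WNT ligand (-1.68 ± 0.22). PDGFRA, a receptor of paraxial mesoderm, was not called (-0.58 ± 0.34, adjusted p = 0.14, edgeR), and was called lower without mesoderm library 3 (-0.83, adjusted p = 0.045, edgeR).

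Most of the muscle genes tested were lower in ectoderm. Of 9 cardiac and smooth muscle genes tested, 8 were called lower in ectoderm and none of them higher, with a median of -2.10. In shared transcripts 8 were called lower too, 7 of them the same genes, where 59.7% of 10535 genes were called, 30.5% higher and 29.2% lower. ACTC1, cardiac actin, stood at 7.24, 10.3 and 9.23 CPM in the ectoderm libraries and 307, 294 and 320.4 CPM in the mesoderm libraries, a change of -5.10 ± 0.12. TAGLN, an actin-binding protein of smooth muscle, stood at 152, 178 and 172 CPM in the ectoderm libraries and 1073, 1062 and 1167 CPM in the mesoderm libraries. TNNT2, cardiac troponin T, changed by -2.53 ± 0.18, ACTA2 (-2.18 ± 0.11), MYL9 (-2.10 ± 0.097), CALD1 (-2.04 ± 0.09) and CNN1 (-1.55 ± 0.10). MYL7, an atrial light chain, was in the mesoderm table only at 7.54 ± 2.70 CPM, while DES (desmin) and MYH11, of smooth muscle, were in the ectoderm table only, at 1.8 and 2.68 CPM. In endoderm, on its own table and with no test, MYL7 stood at 24.1 CPM. ACTC1, TAGLN and CALD1 stood at 249, 523 and 463 CPM there against 295, 1057 and 603 CPM in mesoderm on its own table. ACTA2 and TNNT2 stood further apart, at 13.1 and 4.52 CPM in endoderm against 112 and 53.9 CPM in mesoderm. DES stood at 11.9 CPM in undifferentiated cells. TPM2, a tropomyosin, counted as lower (-0.33 ± 0.12), overlapped between groups and was not called in shared transcripts, without TMM scaling or without any one of ectoderm libraries 1 and 2 and mesoderm libraries 2 and 3. TPM1, another tropomyosin, was not called in the gene sum (-0.23 ± 0.10, adjusted p = 0.061, edgeR) and was called lower in shared transcripts (-1.46 ± 0.082). TPM1 was called in the gene sum by DESeq2, with upper-quartile factors and without mesoderm library 1. Of 5 blood and endothelial genes tested, 4 were called lower, but RUNX1 and GATA2 had no shared transcript. TEK, the angiopoietin receptor, changed by -2.95 ± 0.23 in the gene sum and -0.24 ± 1.00 in shared transcripts. EGFL7 was lower (-0.75 ± 0.14). CDH5, a defining endothelial cadherin, was below 1 CPM in both groups. A further 2 members were in the ectoderm table only, KDR at 1.11 CPM and TIE1 at 0.571 CPM. The 4 members in the mesoderm table only were low, with means from 0.299 CPM (ETV2) to 3.3 CPM (FLT1). KDR and FLT1 stood higher in undifferentiated cells and in endoderm, with each cell type on its own table and no test. HOX genes, which pattern the trunk, were not tested, with 4 of them in the mesoderm table only and at most 6.04 CPM. Of 15 endoderm genes only FOXA3, a forkhead factor, was tested, and it was not called (0.30 ± 0.14, adjusted p = 0.066, edgeR). It was called higher without TMM scaling (0.38), in shared transcripts (0.51), without mitochondrial and 7SL genes (0.33), without ectoderm library 1 (0.37) and without mesoderm library 3 (0.39). The serum protein genes APOA1, APOA2 and TTR, in the mesoderm table only, had means of 0.372 CPM or less.

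**Figure D3:**
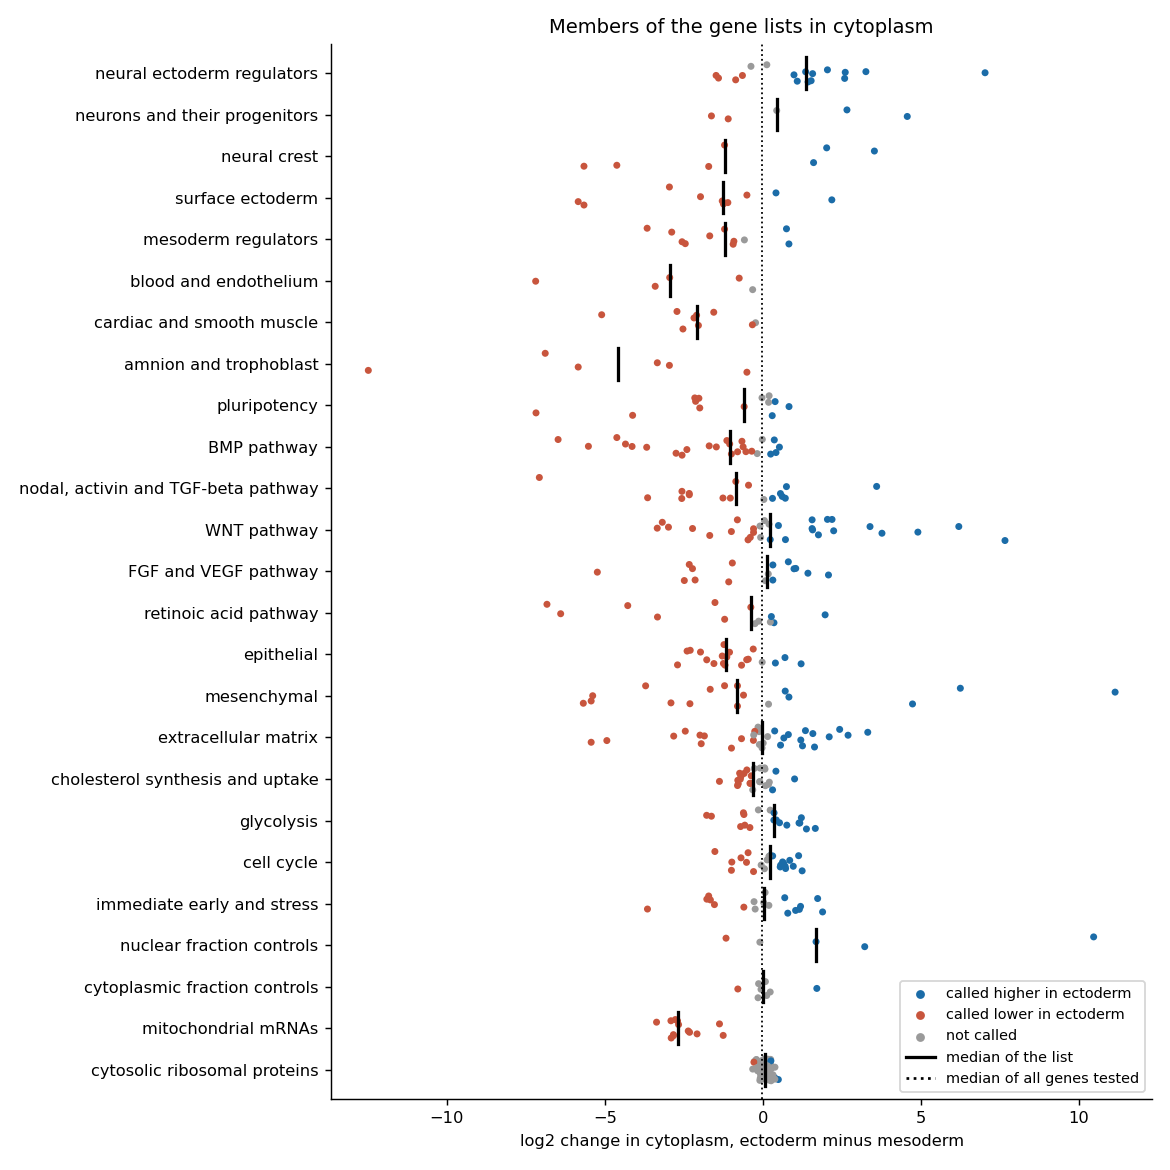
Log2 change in cytoplasm of every tested member of the gene lists, a point per gene coloured by its call, a bar at the list's median and a dotted line at the median of all genes tested. The amnion and trophoblast members and the cardiac and smooth muscle members all lie left of 0, and most neural ectoderm members lie right of it.

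Pluripotency genes were split. Of 13 tested, 7 were called lower and 3 higher in ectoderm (5 higher without TMM scaling), with a median of -0.59. POU5F1 accounted for the largest change. Placed among 4 cell types, for genes in all 4 tables, POU5F1 stood at 6.77 ± 1.38 CPM in ectoderm, 991 ± 83.6 CPM in mesoderm, 1812 ± 265 CPM in endoderm and 3412 ± 649.7 CPM in undifferentiated cells. The mesoderm-labelled cytoplasm thus held more POU5F1 than ectoderm and less than undifferentiated cells. ZFP42, L1TD1 and ZSCAN10, all markers of the undifferentiated state, were lower (-2.0 ± 0.10, -2.02 ± 0.083 and -2.13 ± 0.12). KLF4 was lower (-2.15 ± 0.30). SALL4, a zinc finger factor, was higher by 0.83 ± 0.096 and LIN28B, which blocks let-7 processing, by 0.39 ± 0.11. TDGF1, a nodal coreceptor, was in the ectoderm table only, at 0.044 CPM.

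BMP pathway genes were mostly lower in ectoderm, which was cultured with dorsomorphin, than in mesoderm, which received BMP4. The cultures also differed in other added factors and in serum, and the part of dorsomorphin or BMP4 was not tested. Of 25 tested, 19 were called lower and 4 higher, with a median of -1.05, and in shared transcripts 17 of 24 were lower and 5 higher, with a median of -1.43. Summed over the tested members, ectoderm libraries stood at 1041 to 1093 CPM and mesoderm libraries at 2745 to 2912 CPM. Among ligands, BMP4 was lower at 35.7, 40.0 and 38.9 CPM against 223, 213 and 239 CPM (-2.56 ± 0.089), GDF6 changed by -5.52 ± 0.18 and BMP2 (-0.66 ± 0.13), while BMP7 was higher by 0.36 ± 0.095. Among extracellular antagonists, 3 were lower, with NOG (noggin) at 2.32, 1.14 and 1.37 CPM against 27.7, 30.5 and 26.1 CPM, GREM1 (gremlin) at 2.46, 1.45 and 1.15 CPM against 23.2, 21.7 and 18.9 CPM and FST (follistatin) lower (-1.47 ± 0.11). The receptors BMPR1A, BMPR2 and ACVR1 changed by -1.0 ± 0.089, -1.05 ± 0.11 and -0.54 ± 0.13. Among transducers, SMAD5 was higher by 0.52 ± 0.12 and SMAD9 changed by -0.62 ± 0.12 (-1.85 ± 0.98 in shared transcripts). The inhibitory SMADs, which are induced by the pathway and feed back on it, had larger changes: SMAD6 stood at 10.3, 10.8 and 10.1 CPM against 50.3, 52.9 and 61.2 CPM (-2.40 ± 0.11) and SMAD7 at 2.80, 1.33 and 2.75 CPM against 45.3, 49.5 and 45.7 CPM (-4.35 ± 0.19).

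The ID genes, helix-loop-helix proteins without a DNA-binding domain and direct BMP targets, were all 4 lower in ectoderm. ID1 stood at 203, 222 and 192 CPM in the ectoderm libraries and 616, 625 and 761 CPM in the mesoderm libraries, a change of -1.70 ± 0.11 (adjusted p = 2.6e-08, edgeR). ID2 stood at 36.7, 36.4 and 38.2 CPM in the ectoderm libraries and 235, 259 and 252 CPM in the mesoderm libraries, a change of -2.75 ± 0.085. ID3 stood at 109, 129 and 132 CPM in the ectoderm libraries and 236, 264 and 314 CPM in the mesoderm libraries, a change of -1.14 ± 0.12. ID4 stood at 108, 88.1 and 111 CPM in the ectoderm libraries and 183, 184 and 168 CPM in the mesoderm libraries, a change of -0.80 ± 0.098. No ectoderm library overlapped a mesoderm library for any of them. Because these members moved together, the 250 bases before each start site are shown, from RefSeq on GRCh38.p14, at chr20:31605039-31605288 (plus strand) for ID1, chr2:8681806-8682055 (plus) for ID2, chr1:23559502-23559751 (minus) for ID3 and chr6:19837120-19837369 (plus) for ID4. Capitals mark the SMAD motifs searched, GGCGCC and CAGAC, on both strands.
ID1: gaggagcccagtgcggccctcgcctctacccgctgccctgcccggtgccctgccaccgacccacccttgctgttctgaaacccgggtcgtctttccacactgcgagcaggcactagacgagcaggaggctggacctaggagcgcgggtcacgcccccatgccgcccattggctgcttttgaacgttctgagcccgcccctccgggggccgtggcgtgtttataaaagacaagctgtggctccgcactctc
ID2: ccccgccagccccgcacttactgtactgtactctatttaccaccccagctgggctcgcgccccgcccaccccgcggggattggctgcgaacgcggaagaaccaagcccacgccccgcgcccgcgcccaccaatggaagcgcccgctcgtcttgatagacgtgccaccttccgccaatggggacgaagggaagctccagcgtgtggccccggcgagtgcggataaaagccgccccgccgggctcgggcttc
ID3: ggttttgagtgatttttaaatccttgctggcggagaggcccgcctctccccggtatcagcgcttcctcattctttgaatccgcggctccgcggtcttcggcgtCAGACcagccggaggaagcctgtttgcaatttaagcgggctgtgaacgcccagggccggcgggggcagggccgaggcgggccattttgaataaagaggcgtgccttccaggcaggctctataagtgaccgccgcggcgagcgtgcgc
ID4: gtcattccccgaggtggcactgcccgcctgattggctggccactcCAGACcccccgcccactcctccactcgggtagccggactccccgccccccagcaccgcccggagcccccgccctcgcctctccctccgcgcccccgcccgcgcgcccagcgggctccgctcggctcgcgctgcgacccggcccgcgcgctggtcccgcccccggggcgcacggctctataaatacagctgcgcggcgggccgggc
CAGAC was found once in ID3, 147 bases before the start, and once in ID4, 205 bases before it, and GGCGCC in none. The motifs do not overlap each other. Among 35116 promoter windows, CAGAC was present in 38% and GGCGCC in 16.4%, so a match here is a description only.

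Nodal, activin and TGF-beta genes were mixed. Of 17 tested, 6 were called higher and 10 lower, with a median of -0.86, and in shared transcripts 3 of 14 were higher and 8 lower. The ligands TGFB1 and TGFB2 were lower (-2.57 ± 0.15 and -1.26 ± 0.26). The receptor TGFBR1 was higher by 0.75 ± 0.12 and TGFBR2 lower (-0.86 ± 0.18), though not called in shared transcripts (-1.11 ± 0.66). SMAD2 was higher by 0.71 ± 0.085 and SMAD3 lower (-0.45 ± 0.085). The pathway's targets CCN2, a matricellular protein, and TGFBI, a matrix protein, were lower at 48.0, 42.4 and 41.7 CPM against 238, 212 and 212 CPM and 14.6, 14.2 and 14.6 CPM against 70.0, 74.3 and 73.7 CPM, and SKIL, a SMAD corepressor and target (-2.56 ± 0.14).

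WNT genes were mixed. Of 30 tested, 15 were called higher and 11 lower, with a median of 0.21, and in shared transcripts 11 of 23 were higher and 7 lower. The 3 secreted antagonists tested were higher: besides FRZB and SFRP1, SFRP2 stood at 277, 289.7 and 313 CPM against 62.0, 59.6 and 64.6 CPM (2.24 ± 0.088). Among receptors FZD5 was higher at 557, 469.8 and 479 CPM against 39.3, 37.8 and 33.4 CPM (3.77 ± 0.11) and FZD2 by 2.19 ± 0.087, as were the coreceptor LRP6 and LGR4, an R-spondin receptor, by 1.56 ± 0.15 and 1.76 ± 0.14. FZD4 was lower (-0.81 ± 0.10). Among ligands WNT7B was higher by 1.56 ± 0.21, WNT5A and WNT2B were lower (-1.68 ± 0.22 and -2.99 ± 0.33), and WNT6 was in the mesoderm table only at 60.7 ± 3.58 CPM. RNF43, which removes frizzled receptors, was lower (-1.0 ± 0.13) and RSPO3, an R-spondin (-3.34 ± 0.51). The nuclear factors TCF7L1 and TCF7L2 were lower (-0.47 ± 0.087 and -0.29 ± 0.078), TCF7L2 without a call in shared transcripts (-0.31 ± 0.36).

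In the FGF and VEGF pathways, 7 of 16 genes tested were called higher and 7 lower. FGFR1 was higher by 0.81 ± 0.086, and FGFR2 and FGFR3 were lower (-2.23 ± 0.092 and -2.14 ± 0.083). The feedback inhibitor SPRED1 was higher by 1.04 ± 0.11, and SPRY2 and SPRY4 were lower (-1.08 ± 0.087 and -2.33 ± 0.13). ETV5, a target factor, was higher by 1.42 ± 0.11. FGF2 and FGF8 were in the ectoderm table only, at 65.9 ± 15.6 and 46.3 ± 3.08 CPM. In the retinoic acid pathway, 3 of 13 genes were called higher and 7 lower. The carrier CRABP2 was higher at 547, 641 and 646 CPM against 153, 156 and 159 CPM, and CRABP1 was in the ectoderm table only at 159 ± 16.1 CPM. RARB, a receptor and target of the pathway, was lower at 1.44, 1.2 and 1.21 CPM against 22.5, 26.8 and 25.2 CPM (-4.27 ± 0.17), DHRS3, which turns retinal back to retinol (-3.33 ± 0.23), and RDH10, which makes retinal (-1.51 ± 0.20).

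Epithelial genes were lower in ectoderm: 16 of 20 tested were called lower and 3 higher, with a median of -1.17. KRT18, a simple-epithelium keratin, stood at 347, 372 and 351 CPM in the ectoderm libraries and 2180.4, 2144 and 2624 CPM in the mesoderm libraries, and its partner KRT8 at 813, 889 and 815 CPM in the ectoderm libraries and 4012, 3878 and 4487 CPM in the mesoderm libraries. CDH1, E-cadherin, was lower (-1.23 ± 0.092), EPCAM (-1.25 ± 0.10), CLDN6 (-1.55 ± 0.083) and ESRP2, an epithelial splicing factor (-2.40 ± 0.10). TJP3 and CLDN4, of tight junctions, were higher by 1.21 ± 0.097 and 0.70 ± 0.079. Genes of the mesenchymal list were also mostly lower, 11 of 17 against 5 higher, with a median of -0.80. FN1, fibronectin, stood at 29.5, 26.4 and 28.1 CPM in the ectoderm libraries and 1314, 1073 and 1235 CPM in the mesoderm libraries, a change of -5.43 ± 0.12. S100A10 was lower (-5.68 ± 0.15), ANXA1 (-3.71 ± 0.095), CD44 (-5.38 ± 0.32) and VIM (vimentin) (-1.67 ± 0.10). CDH2, N-cadherin, was higher by 0.71 ± 0.11 and CDH11 by 4.73 ± 0.12 (3.70 ± 0.12 in shared transcripts).

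Matrix genes were evenly split, with 13 of 31 called higher, 11 lower and a median of -0.03, and 14 of 27 higher and 7 lower in shared transcripts. The fibrillins FBN1 and FBN2 were higher by 3.32 ± 0.19 and 2.69 ± 0.11 (FBN2 by 1.11 ± 0.16 in shared transcripts), the basement membrane genes NID1, LAMA1 and COL4A2 by 2.10 ± 0.11, 1.63 ± 0.091 and 1.25 ± 0.10, and COL9A1 by 2.43 ± 0.19. COL12A1, COL5A2 and TNC were lower (-4.93 ± 0.19, -2.82 ± 0.14 and -1.85 ± 0.096). LUM, a proteoglycan of connective tissue, was in the mesoderm table only at 48.5 ± 2.37 CPM. The list did not have this balance in the other fractions: 8 of its members were called higher and 21 lower in the libraries labelled nucleus, where 33.6% and 35.5% of all genes were, and 5 higher and 18 lower on chromatin, where 24.3% were in each direction.

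Metabolic and growth lists were mixed. Of 25 genes of cholesterol synthesis and uptake, 12 were called lower and 3 higher (5 higher without TMM scaling, 6 higher and 8 lower in shared transcripts), with INSIG1, which holds back the pathway, higher by 1.00 ± 0.088. Of 19 glycolysis genes, 10 were called higher and 7 lower. The enzymes LDHA, PGK1 and ENO2 were higher by 1.38 ± 0.087, 1.17 ± 0.084 and 1.66 ± 0.085. The glucose transporter SLC2A1 was higher by 1.22 ± 0.09, while SLC2A3 was lower (-1.63 ± 0.11). Of 23 cell cycle genes, 12 were called higher and 7 lower. The mitotic genes BUB1 (1.24 ± 0.081), TOP2A (1.13 ± 0.11) and CCNB2 (0.70 ± 0.084) were higher, and the replication genes PCNA (-0.99 ± 0.084), MCM5 (-0.98 ± 0.10) and MCM4 (-0.69 ± 0.092) were lower, as was CCNE1 (-1.52 ± 0.15). CCND1 was higher by 0.96 ± 0.081. Of 18 immediate early and stress genes, 7 were called higher and 6 lower: HSPA1A, a heat-shock chaperone, by 1.89 ± 0.086 and TXNIP by 1.73 ± 0.09, against JUN (-1.53 ± 0.08), MYC (-1.71 ± 0.12) and FOSL1 (-3.65 ± 0.19). HSPA1A and HSPA1B are near-identical copies, so the split between them is uncertain. Of 79 ribosomal protein genes, 3 were called higher and 1 lower, with a median of 0.07. In shared transcripts 23 of 78 were called higher and 5 lower. The number higher was 10 without TMM scaling, 11 without mesoderm library 2 and 1 without ectoderm library 3, and the number lower was 5 without mesoderm library 1 and 0 without mesoderm library 3. The cell cycle and glycolysis lists had another balance on chromatin, where 24.3% of all genes were called in each direction. There 2 cell cycle genes were called higher and 11 lower, and 3 glycolysis genes higher and 6 lower. In the libraries labelled nucleus 9 cell cycle genes were called higher and 7 lower, and 12 glycolysis genes higher and 5 lower. Of all genes, 33.6% were called higher and 35.5% lower in those libraries.

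All 13 mitochondrial mRNAs were called lower in ectoderm cytoplasm, with a median of -2.70, and 9 of 12 in shared transcripts. MT-CO2, a subunit of cytochrome oxidase, stood at 569, 559.9 and 888 CPM in the ectoderm libraries and 5344, 7653 and 7752 CPM in the mesoderm libraries. MT-ND1, a subunit of complex I, stood at 257, 236 and 392 CPM in the ectoderm libraries and 1674, 2585 and 2347 CPM in the mesoderm libraries. Every ectoderm library was below every mesoderm library for these, but the groups overlapped for MT-ATP8 and MT-ND4L. Both lost their call without mesoderm library 2, and MT-ATP8 also without ectoderm library 1 or 2 and by DESeq2. In the libraries labelled nucleus all 13 were called higher in ectoderm, with a median of 3.57, and on chromatin 0 were called by edgeR or by DESeq2, with a median of -0.05 and 0 at an unadjusted p under 0.05. That rests on mesoderm chromatin library 3, where these mRNAs took 4.78% of counts against 0.916% and 0.657% in libraries 1 and 2 and 1.68 to 2.33% in ectoderm. Without it 12 of the 13 were called higher in ectoderm, with a median of 1.41. In that fit 7353 of 13171 genes were called, 3709 of them higher. Among nuclear RNAs, MALAT1 was higher in ectoderm cytoplasm by 3.22 ± 0.18 (1.25 ± 0.35 in shared transcripts) and KCNQ1OT1 by 1.68 ± 0.18, while SNHG14 was lower (-1.17 ± 0.11) and NEAT1 was not called (-0.09 ± 0.09, adjusted p = 0.36, edgeR). KCNQ1OT1 and SNHG14 lie opposite to other genes, and whether counting used the strand is not stated, so their reads are uncertain.

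**Figure D4:**
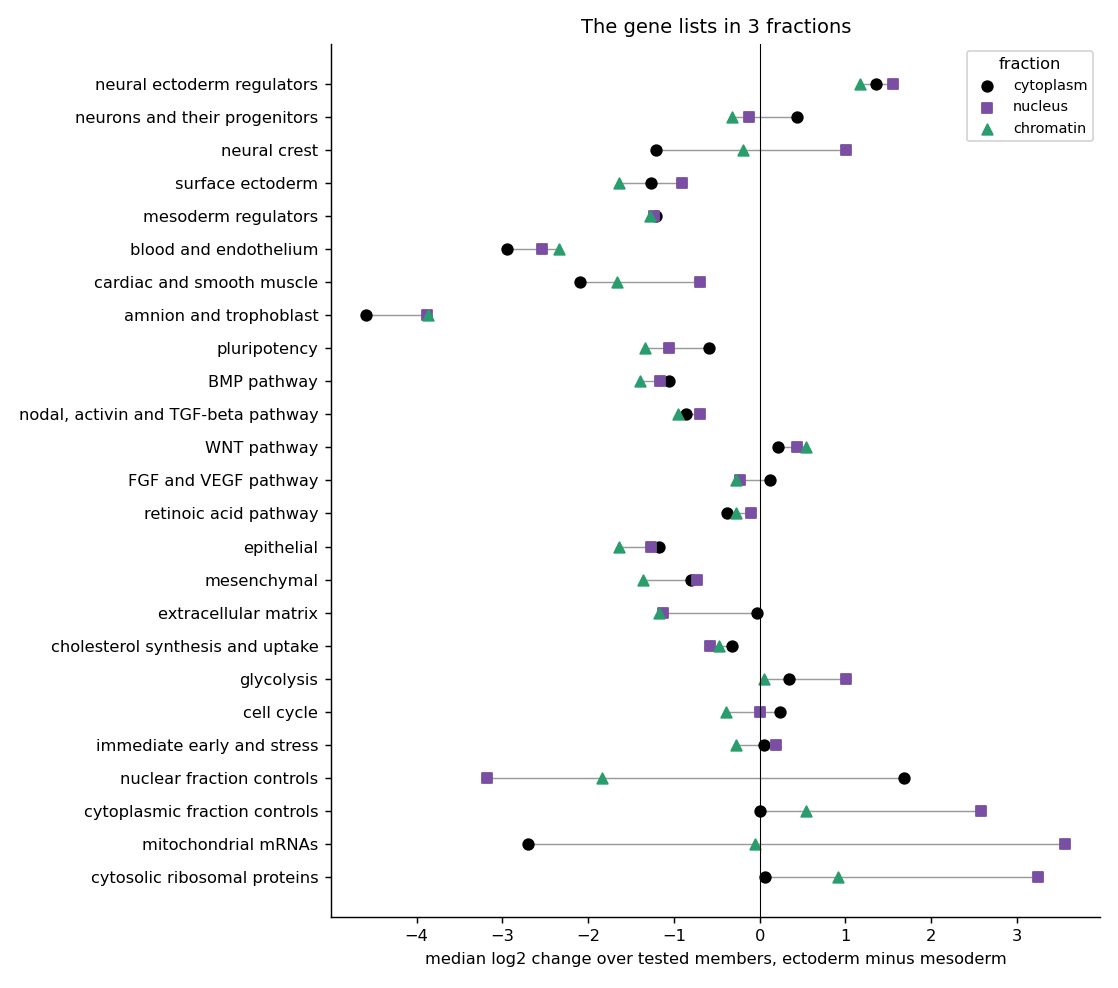
Median log2 change between ectoderm and mesoderm over the tested members of each gene list, in cytoplasm (circles), in the libraries labelled nucleus (squares) and on chromatin (triangles), joined by a line per list. The mitochondrial mRNAs lie at -2.70 in cytoplasm and 3.57 in nucleus, while the amnion and trophoblast, mesoderm and neural ectoderm lists lie close together in the 3 fractions.

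The other fractions gave the same contrast in other libraries, sharing the assemblies. On chromatin, 6348 of 13045 genes tested were called (48.7%), 3172 higher and 3176 lower, and 4643 of the 4924 called in both were called the same way (94.3%). In the libraries labelled nucleus, 8876 of 12845 were called (69.1%), 4315 higher and 4561 lower, and 4495 of 6170 called in both agreed in direction (72.9%). Without TMM scaling 34.9% of the nucleus calls were higher rather than 48.6%, with a median over all genes of -0.41. Across genes, which are not independent replicates, the cytoplasm change correlated with the chromatin change at 0.82 over 12864 genes and with the nucleus change at 0.63 over 12776. The difference between the cytoplasm and the nucleus change was itself called for 8164 of 13180 genes (61.9%), 4062 positive (30.8%) and 4102 negative (31.1%). Without TMM scaling 70.5% of these were positive, with a median of 0.53. It was negative for all 13 mitochondrial mRNAs (median -6.29) and 78 of 79 ribosomal protein mRNAs (median -3.26), and it was called positive for 25 of 31 matrix genes (median 1.01). MALAT1 had a difference of 3.83 ± 0.68 and NEAT1 one of 3.55 ± 0.38.

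The genes chosen by size of change alone, 15 in each direction, were led by genes whose transcripts the tables do not share. Of the 15 higher in ectoderm, 12 had no shared Ensembl transcript and 5 were at 0 in every mesoderm library. RPS6KA3, a ribosomal S6 kinase, was at 0 there and at least 297-fold higher, with 5 transcripts in the ectoderm table and 1 in the mesoderm table. ZNF678 was at least 219.6-fold, ZEB1 at least 87.6-fold and ZDHHC14 at least 78.8-fold higher. DYRK1A, PIK3CA, RORA, XYLT1, PFKFB2 and KC6 had 1 to 3 counts in mesoderm libraries, and LIMK1 and FOXK1 had no shared transcript either. Of the 15 lower in ectoderm, 9 had no shared transcript, namely MAML2 (at least 254-fold lower), SNORD116-20 (at least 146-fold), ARID5B (at least 73.7-fold), RUNX1T1, SMARCA2, CHN2, RASGRF2, GCNT4 and RUNX1. JPH2 and MME were the other 2, beside EPAS1, GABRP, LPL and POU5F1. For the genes with no shared transcript, cell type and assembly cannot be told apart.

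Some genes were listed in 1 table only, and their levels are a description of that cell type. Of the 4242 in the ectoderm table, 448 had a mean of at least 10 CPM and 28 at least 100 CPM, and together they held 2.37 to 5.46% of the counts. The highest with a symbol, beside SOX2 and RAX, were a 5.8S ribosomal RNA gene, which rested on library 2 at 17005 CPM, RN7SL2, a 7SL RNA gene, at 1448 ± 626 CPM, MIAT, a long noncoding RNA, at 883, 896 and 923 CPM, the ribosomal pseudogenes RPL41P1 and RPS2P5, and SEMA6B, a semaphorin, at 321 ± 17.7 CPM. The pseudogenes and RN7SL2 share reads with near-identical copies and are uncertain. Of the 1533 in the mesoderm table, 129 had at least 10 CPM and 9 at least 100 CPM, with 0.97 to 1.43% of the counts. The highest were another 5.8S RNA gene, H19, an imprinted noncoding RNA expressed from the maternal copy, at 289, 351 and 351 CPM, HNRNPUL2-BSCL2, IGFBP7, a secreted binding protein, at 140.1 ± 12 CPM, CHMP4B, HAND1, CACNG4 and JUND, an AP-1 factor, at 121 ± 2.63 CPM.

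**Figure D5:**
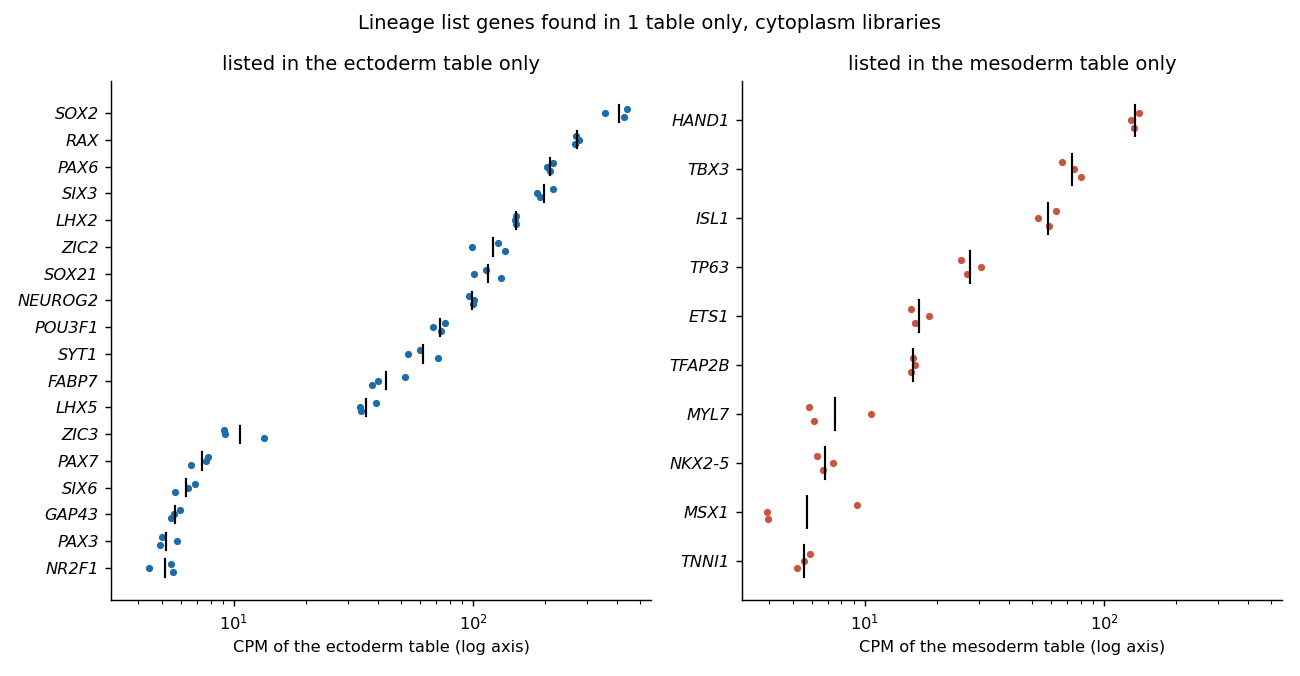
CPM (log axis) of lineage list genes found in the ectoderm table only (left) or the mesoderm table only (right), on their own table, a point per cytoplasm library and a bar at the mean. SOX2, RAX and PAX6 lead the ectoderm table and HAND1 the mesoderm table.

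Isoforms of a gene could differ in direction. Of 2950 genes with at least 2 shared Ensembl transcripts tested, 230 had 1 transcript called higher and another called lower, and for 170 of them both were at 10 CPM or more. Of 14375 shared transcripts tested, 6694 were called (46.6%), 3403 higher (23.7%) and 3291 lower (22.9%). ENC1, an actin-binding protein of neural cells, had 1 transcript higher by 5.18 ± 0.29 (78.1 against 2.12 CPM) and 1 lower at 0.74 against 20.0 CPM (-4.70 ± 0.92). ECT2, a regulator of cell division, had 1 higher by 1.62 ± 0.25 (78.1 against 25.3 CPM) and 1 at 0 in every ectoderm library and at 54.8 CPM in mesoderm. LIMA1, an actin-bundling protein, had 1 at 50.2 against 2.10 CPM and 1 at 0 against 19.5 CPM. C17orf80 and INTS3 were the other 2 genes with the widest gap between transcripts. The rule by which reads were assigned to isoforms is unknown, which makes a value for 1 isoform less sure than its gene sum.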

How the data were processed

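RNA of subcellular fractions was sequenced with an NEBNext Ultra kit on an Illumina NovaSeq instrument, per the labels' protocols. The authors deposited whole-number counts per assembled transcript and library, 1 table per cell type on its own assembly. The submitters' processing notes name STAR, RSEM and the build hg38, without versions or roles, so the counts may be rounded estimates. How the assemblies and filters were made is not given in the sources used here. There was 1 count column that matched no sample and was not used. Columns coded Nei were read as the nucleus libraries, the only fraction of each cell type with no other column.

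Groups came from the sample labels. The series text speaks of actinomycin D, which no label of these samples names, and the labels were followed. Rows that name no gene held 0.28 to 8.67% of the counts of a cytoplasm library and were left out. Counts were summed per Ensembl gene without version and joined. The test was edgeR 4.0.16 (quasi-likelihood F test, TMM, filterByExpr with a minimum count of 10) in R 4.3.3, with Benjamini-Hochberg adjustment, 3 libraries against 3, with no block. Standard errors are the change over the square root of F. Folds against a group at 0 are bounds against 3 counts per library, and ratios with 1 to 3 counts have 95% counting intervals. Neither covers more than counting error, as copies made by PCR are not separate molecules. Replicate pairs were compared by chi-squared per degree of freedom (16.3 to 23.1), and no pair agreed within counting noise.

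Genes were named by rule: the 15 largest changes each way among called genes with a symbol, at least 10 CPM in the higher group and no overlap, members of the gene lists, the 8 highest genes with a symbol in each single table, and the 5 largest cytoplasm-minus-nucleus differences each way. NNAT and the genes held to gene sum and shared transcripts were chosen after values were seen. A few genes these rules select are not reported here. The comparison, the members and the gene lists were chosen with earlier results of these data known. The alternatives were DESeq2 1.42.0, other scalings, filters and a 2-fold threshold, shared transcripts, a replicate block, 12 cytoplasm libraries, no mitochondrial or 7SL genes, and leaving out each library. The scripts were tested on simulated data.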

Additional observations from a re-analysis of the deposited data

Results flagged for a closer look

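The change between ectoderm and mesoderm was tested for a difference between cytoplasm and the libraries labelled nucleus, and the 5 largest differences in each direction, on the log2 scale, were taken for a closer look. Towards ectoderm cytoplasm these were TXLNGY (9.46 ± 2.01), a Y-linked gene with a close X-linked relative, PCDHA12 (8.40 ± 0.99), a clustered protocadherin whose exons are shared with its neighbours, RPS6KA3 (7.91 ± 1.47), ZNF678 (7.67 ± 1.55) and ZEB1 (7.07 ± 2.49). TXLNGY was at 0 in every ectoderm library labelled nucleus. In cytoplasm it was lower in ectoderm, at 4.97, 0.12 and 6.28 CPM against 12.7, 12.8 and 10.4 CPM when scaled over the 12 libraries of both fractions. PCDHA12, RPS6KA3, ZNF678 and ZEB1 were at 0 in every mesoderm cytoplasm library. Without mesoderm nucleus library 1 the ZEB1 difference was 3.20 and was not called. Towards mesoderm cytoplasm they were RPL22P1 (-10.59 ± 3.62), a ribosomal pseudogene that shares reads with its parent, and the mitochondrial genes MT-ND3 (-7.40 ± 1.02), MT-CO2 (-7.38 ± 0.34), MT-ATP6 (-7.08 ± 0.38) and MT-ND4L (-6.77 ± 1.16). RPL22P1 was at 0 in every mesoderm library labelled nucleus. The values of the genes with a group at 0 are fitted ones and give no size or bound. RPL22P1 had an adjusted p of 0.054 (edgeR) without mesoderm nucleus library 1. The other 8 kept their call under each alternative run. The fraction controls of the libraries labelled nucleus, given with the data above, move with these values, and their part was not tested.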

How the results depend on the processing

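Of 69 alternative counts of features called, 65 were within 1.5 times the value given. Requiring a 2-fold change left 3488 genes in cytoplasm, 5698 in nucleus and 4104 on chromatin, and shared transcripts alone left 4095 on chromatin, where fewer genes could be tested. Leaving out 1 library gave 8210 to 8715 genes in cytoplasm, 7757 to 9367 in nucleus, 4670 to 7353 on chromatin, 7504 to 8373 for the difference between cytoplasm and nucleus, and 5475 to 6263 shared transcripts. In cytoplasm DESeq2 called 8678 genes and total counts without TMM 8699.

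Of 187 named genes called in cytoplasm, 5 changed sign in shared transcripts. MAP2 (-10.23, fitted with the ectoderm group at 0), DNMT3B (-3.90) and MEIS1 (1.34) were called there, and MEIS2 (0.57) and TFAP2A (0.53) were not. A further 6 kept their sign and lost their call: TEK (-0.24), SMAD9 (-1.85), TFAP2C (-0.29), TGFBR2 (-1.11), TCF7L2 (-0.31) and TPM2 (-0.14). The cause was not tested. Shared-transcript values exist for 175 of the 187. Among scalings, filters, tests and sample sets other than a 2-fold threshold, of the 187 DNMT3B lost its call with 12 cytoplasm libraries (0.29) and TPM2 without TMM (-0.25). The 187 are not every gene named above, and MT-ATP8 and MT-ND4L are outside them. Both kept their sign and lost their call in shared transcripts (-2.46 and -2.10), and MT-ATP8 lost its call by DESeq2. Of 832 counts of list members called, 70 moved by over 1.5 times, mostly with a 2-fold threshold, with shared transcripts or with 12 libraries, where other or fewer genes could be called.

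Replicate numbers did not pair the samples: deviations of same-numbered ectoderm and mesoderm libraries correlated at 0.22, -0.25 and 0.07, and not every library correlated best with its own number. With a replicate block, 8809 genes were called in cytoplasm, 8660 in nucleus, 5975 on chromatin, 7966 for the difference and 5509 shared transcripts.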
